A study of Homo sapiens with 6 samples.

Results

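Ephrins and their Eph receptors were examined in CAL-62, an established human cell line from an anaplastic thyroid carcinoma, through 6 member genes of the family. These were the ligand genes EFNB2, EFNB1 and EFNA1 and the receptor genes EPHA2, EPHB2 and EPHB4, chosen by name out of 11354 genes whose listed transcripts were summed. The set was drawn up around EFNB2 with its difference between the groups already known, so the members' differences are given as a description, without a test. Cultures grown in DMEM with fetal bovine serum carried an empty vector (3 libraries) or overexpressed FOXK2, a forkhead transcription factor (3 libraries, genotype oeFOXK2). The labels name no drug, and they give neither the way FOXK2 was delivered nor whether the cells of a group were 1 clone. Values are FPKM, which scale the fragments of a transcript by its length and by the depth of the library, summed over the listed transcripts of a gene.

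Eph receptors form a family of receptor tyrosine kinases that bind ephrins on the surface of a neighbouring cell. A-type ephrins are held in the membrane by a lipid anchor, whereas B-type ephrins cross it and carry a cytoplasmic tail, so that signals run forward into the receptor-bearing cell and in reverse into the ligand-bearing cell. Ephrin-B2 and its receptor EphB4 are known as marks of arterial and venous endothelium, and in endothelial cells ephrin-B2 takes part in the internalization of VEGF receptors. EphA2 and ephrin-A1 are much studied in carcinoma cells.

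FOXK2 mRNA stood at 16.3, 12.5 and 18.8 FPKM in vector replicates 1, 2 and 3, against 30.8, 36.2 and 30.1 FPKM with FOXK2 (1.00 ± 0.17 SE in log2 fold change; adjusted p = 0.00525 by limma). Summed signal was 370457, 376120 and 395782 FPKM in vector replicates 1, 2 and 3, and 335151, 363133 and 347308 FPKM with FOXK2. Every FOXK2 library was thus below every vector library in this sum, and the number of reads behind it is unknown. Of the thyroid transcription factor genes, PAX8 was at 82.6 to 155 FPKM over the 6 libraries and was not called, HHEX rose from 20 ± 1.99 to 49.5 ± 5.06 FPKM (SD, n = 3; limma adjusted p = 0.000991), and FOXE1 was at 0.838 ± 0.0157 and 0.289 ± 0.0824 FPKM (SD, n = 3), too low to be tested. The 4 keratin genes looked for were abundant. KRT8 and KRT18 were at 580 to 923 FPKM over the 6 libraries and were not called (limma adjusted p = 0.987 and 0.593), but both were called higher once GC content and length were corrected for (0.50 and 0.66 in log2 fold change). KRT19 fell from 621 ± 11.6 to 251 ± 34.5 FPKM (SD, n = 3), by 1.31 on the log2 scale, or by 0.71 with that correction (limma adjusted p = 0.000642 and 0.000811). KRT7 fell from 1734 ± 158 to 1066 ± 277 FPKM (SD, n = 3; limma adjusted p = 0.0193, or 0.202 with the correction), a call also lost without vector replicate 3, FOXK2 replicate 1 or FOXK2 replicate 3. The part of these shifts in the values below was not tested. The follicular genes NKX2-1, TG, TSHR and SLC5A5 and all 10 endothelial markers looked for, PECAM1 and CDH5 among them, had no listed transcript and were not analysed here. The values come from whole cultures, in which fewer cells with a transcript and less transcript per cell cannot be told apart.

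The B-type ligand genes EFNB2 and EFNB1 are the pair on which the results turn, and the bases before their start sites are shown for that reason. Both are RefSeq promoter sequences of build GRCh38.p14, 250 bases that end at the last base before the annotated start, with every CG dinucleotide in capitals. The EFNB2 stretch lies at chr13:106535663-106535912 on the minus strand and the EFNB1 stretch at chrX:68828771-68829020 on the plus strand.
EFNB2: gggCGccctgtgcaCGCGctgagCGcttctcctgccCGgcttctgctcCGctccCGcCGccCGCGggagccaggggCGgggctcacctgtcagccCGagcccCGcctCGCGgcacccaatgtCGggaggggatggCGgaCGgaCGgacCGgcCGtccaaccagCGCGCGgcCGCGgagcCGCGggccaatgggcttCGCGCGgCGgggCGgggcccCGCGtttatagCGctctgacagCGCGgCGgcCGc
EFNB1: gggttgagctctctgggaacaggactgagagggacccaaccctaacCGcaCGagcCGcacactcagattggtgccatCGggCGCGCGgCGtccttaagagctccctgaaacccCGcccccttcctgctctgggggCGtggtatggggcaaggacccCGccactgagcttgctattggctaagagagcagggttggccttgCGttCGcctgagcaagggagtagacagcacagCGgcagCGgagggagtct
The EFNB2 stretch holds 40 CG dinucleotides and the EFNB1 stretch 15. Over the full RefSeq windows of 300 bases (250 before the start and 50 after), EFNB2 had 49, more than 98.4% of the 35116 windows, whose median was 14. EFNB1 had 18, EFNA1 28, EPHA2 20, EPHB4 36 and EPHB2 49 in the first of its windows. All 6 members had a window. The letters GTAAACA, a forkhead motif, were searched on both strands and matched in no member's window, against 3.42% of all windows. The AP-1 motif TGANTCA likewise matched in no member, against 7.71%. The letters GTGGGAA of RBPJ, the DNA-binding factor of the Notch pathway, matched in the EFNA1 window and in no other member's, against 6.25%, so no matches overlapped. These windows hold only the bases next to the start.

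EFNB2, the gene of ephrin-B2, differed most between the groups among the 6 members. It stood at 4.45, 4.84 and 3.4 FPKM in vector replicates 1, 2 and 3, against 27.7, 21.2 and 24.3 FPKM with FOXK2. Every FOXK2 library was above every vector library, with replicate 2 the lowest of the FOXK2 group. The means were 4.23 ± 0.746 and 24.4 ± 3.26 FPKM (SD, n = 3), with a ratio of 5.77. On the log2(FPKM + 1) scale the difference was 2.28, which ranked 10 among 10302 tested genes ordered from the largest rise. It was 2.38 without FOXK2 replicate 2 and lay between 1.97 and 2.51 over 17 other ways of processing the values. All of the listed signal came from 1 transcript, EFNB2-201, of 4461 bases with a coding length of 999.

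EFNB1, the gene of the related transmembrane ligand ephrin-B1, did not separate the groups. It stood at 3.9, 3.34 and 4.37 FPKM in the vector libraries and at 3.29, 4.61 and 4.66 FPKM in those with FOXK2. The lowest and the highest of these 6 values were both in FOXK2 libraries, and the groups overlapped. The means were 3.87 ± 0.512 and 4.19 ± 0.775 FPKM (SD, n = 3). EFNB2 therefore went from 1.14, 1.45 and 0.778 times the level of EFNB1 in the vector libraries to 8.42, 4.6 and 5.22 times in the FOXK2 libraries. These are ratios of uncorrected FPKM. With GC content and length corrected for, the log2 fold change was 1.97 for EFNB2 and 0.44 for EFNB1.

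EFNA1, which encodes the lipid-anchored ligand ephrin-A1, was the lowest member in every library. It stood at 0.685, 1.57 and 1.58 FPKM in vector libraries and at 0.862, 0.621 and 0.892 FPKM in FOXK2 libraries. The groups overlapped through vector replicate 1, which was as low as the FOXK2 libraries. With a mean of 1.04 FPKM over all libraries it passed the filter of 1 FPKM by a narrow margin, and in vector libraries its spread was the widest of the 6 relative to its mean (1.28 ± 0.514 FPKM, SD, n = 3).

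**Figure D1:**
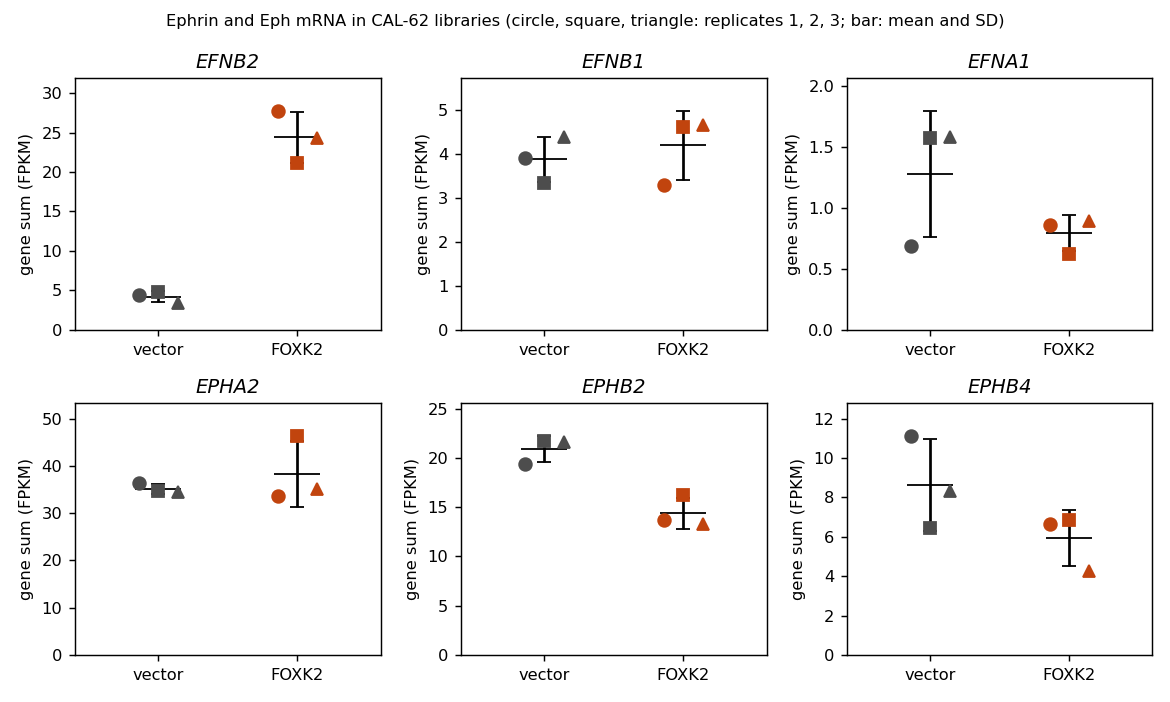
Gene sums in FPKM on linear axes that start at 0, for the 6 members in vector and FOXK2 libraries. Points are single libraries (circle, square and triangle for replicates 1, 2 and 3), with the mean and SD as bars. EFNB2 lies at 3.4 to 4.84 FPKM in vector and 21.2 to 27.7 FPKM in FOXK2 libraries, EPHB2 is the other member whose groups do not overlap, and the remaining 4 overlap.

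The 3 receptor members were more abundant than the 3 ligand members in vector cells and differed less between the groups than EFNB2. EPHA2, the gene of a receptor that binds A-type ephrins, was the highest member in every library. It stood at 36.4, 34.8 and 34.4 FPKM in vector replicates 1, 2 and 3, against 33.6, 46.3 and 35.1 FPKM with FOXK2. FOXK2 replicate 2 was high and the other FOXK2 libraries lay near the vector libraries, so the groups overlapped. The log2 fold change was 0.11, and -0.03 without FOXK2 replicate 2.

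EPHB2, the gene of a receptor for B-type ephrins, was lower in the FOXK2 libraries. It stood at 19.4, 21.7 and 21.6 FPKM in the vector libraries and at 13.7, 16.2 and 13.3 FPKM in those with FOXK2. The groups did not overlap, with replicate 2 the highest of the FOXK2 group. The means were 20.9 ± 1.32 and 14.4 ± 1.53 FPKM (SD, n = 3). The difference was -0.51 on the log2(FPKM + 1) scale (from -0.59 to -0.34 over the alternatives). EPHB2 was listed with 4 transcripts, the most of any member. EPHB2-204, of 10816 bases with a coding length of 3165, gave 48.1 to 52.4% of the gene sum in vector and 45 to 52.1% in FOXK2 libraries. EPHB2-203, of 3677 bases with a coding length of 2961, gave 40.8 to 45.4% and 38.9 to 49.5%. Both main transcripts were therefore lower, from 10.3 ± 0.162 to 7.08 ± 0.96 FPKM and from 9.11 ± 1.05 to 6.28 ± 0.949 FPKM (SD, n = 3), and their shares overlapped between the groups. The short EPHB2-207, with a coding length of 1446, was at 0.754, 0.742 and 0.948 FPKM in vector libraries and at 0.132, 0.439 and 0 FPKM in FOXK2 libraries, where the last value is only listed at 0. It gave 3.41 to 4.39% of the gene sum in vector and 0 to 2.72% in FOXK2 libraries. EPHB2-202 was at 0.637 ± 0.0798 and 0.865 ± 0.303 FPKM (SD, n = 3), or 2.86 to 3.3% and 4.51 to 9.04%. The shares of these low transcripts therefore did not overlap between the groups. Listed transcripts had a group mean of at least 0.5 FPKM, which EPHB2-207 reached only in the vector group (0.815 against 0.19 FPKM). Its separation is therefore given as a description, and how common such separation was over all transcripts is not given here.

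EPHB4, the gene of a receptor whose preferred ligand is ephrin-B2, varied most, relative to its mean, among the 3 receptor members. It stood at 11.1, 6.45 and 8.32 FPKM in vector replicates 1, 2 and 3, against 6.62, 6.87 and 4.28 FPKM with FOXK2. Vector replicate 2 lay within the range of the FOXK2 libraries, so the groups overlapped. The log2 fold change was -0.47 (-0.29 without vector replicate 1 and without FOXK2 replicate 3). EPHB4-201, with a coding length of 2961, gave 77.4 to 86.4% of the gene sum over the 6 libraries. The other EPHB4 transcripts listed, EPHB4-202 and EPHB4-210, reached at most 1.42 FPKM in any library.

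The order of the members by level changed at EFNB2. In vector libraries EPHA2 was followed by EPHB2 and EPHB4 without overlap, then by EFNB2 and EFNB1, whose ranges of 3.4 to 4.84 and 3.34 to 4.37 FPKM overlapped, and EFNA1 was last. In FOXK2 libraries EFNB2 came second after EPHA2 and above EPHB2 in all 3, again without overlap between neighbours. Next were EPHB4 and EFNB1, whose ranges overlapped, and EFNA1. In single libraries, EFNB2 exceeded 24.3 to 30.6% of the tested genes in vector cells and 71.1 to 76.9% in FOXK2 cells.

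Of the 6 members, 1 (EFNB2) was called higher and 1 (EPHB2) lower in the fit across all genes, where 36.3% of genes were called in either direction, 17.6% higher and 18.7% lower. Groups that did not overlap were seen in 2 of the 6 members and in 52% of all tested genes (25.7% higher and 26.4% lower with FOXK2). EPHB2 was not called without vector replicate 2 or 3 or without FOXK2 replicate 1 or 3, so the count of called members was then 1. Calls over all genes also went from 3741 to 2287, 2021, 2349 and 1944 in those fits, in the same order. Across the 10302 genes, which are not independent replicates, the log2 fold change followed GC content with a Spearman correlation of -0.587. With a correction for GC content and length the log2 fold changes were 1.97 for EFNB2, 0.44 for EFNB1, 0.10 for EFNA1, 0.43 for EPHA2, -0.34 for EPHB2 and -0.11 for EPHB4, so that EFNA1 changed sign. EFNB1 and EPHA2 were then also called higher, which made 4 called members against 30.2% of all genes. With the replicate number added as a block to that correction, EFNB2 and EPHA2 were called and EPHB2 was not. That made 2 called members, against 2124 of the 10302 genes. The GC content was 46.2% for EFNB2 and 57 to 62.4% for the other members.

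**Figure D2:**
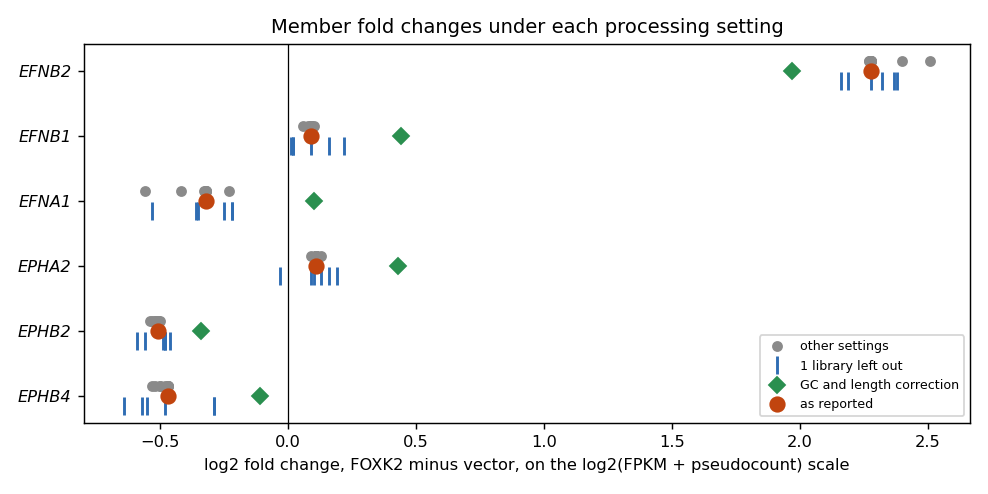
Log2 fold changes of the 6 members, FOXK2 minus vector, on the log2(FPKM + pseudocount) scale. Orange circles are the values as reported, grey circles other settings, blue ticks the fits with 1 library left out and green diamonds the GC and length correction. EFNB2 lies between 1.97 and 2.51 in all of them, and EFNA1 moves from -0.32 to 0.10 with the correction.

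The listed ephrin ligands together were at 19.8, 19.3 and 18.4 FPKM in vector replicates 1, 2 and 3, against 39.9, 35 and 39.2 FPKM with FOXK2. The sum over 7 ligand genes was therefore higher in each FOXK2 library than in any vector library. Without EFNB2 it was 15.4, 14.5 and 15 FPKM in vector and 12.2, 13.8 and 14.9 FPKM in FOXK2 libraries, and the groups overlapped. EFNB2 made up 18.5 to 25.1% of the ligand sum in vector libraries, where EFNA4 was the largest part with 27.3 to 33.5%, and 60.5 to 69.4% in FOXK2 libraries. The 5 listed receptor genes summed to 64.1 to 68.2 FPKM in vector libraries and to 56.2, 72 and 55.3 FPKM in FOXK2 libraries. EPHA2 made up 52.1 to 54.3% of the receptor sum in vector and 59.8 to 64.2% in FOXK2 libraries, while EPHB2 made up 28.4 to 33.9% and 22.4 to 24.5%. Set against the B-type receptors, EFNB2 went from 0.157 to 0.23 times the level of EPHB2 in vector libraries to 1.31 to 2.02 times in FOXK2 libraries. Against EPHB4 it went from 0.401 to 0.749 times to 3.09 to 5.68 times.

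**Figure D3:**
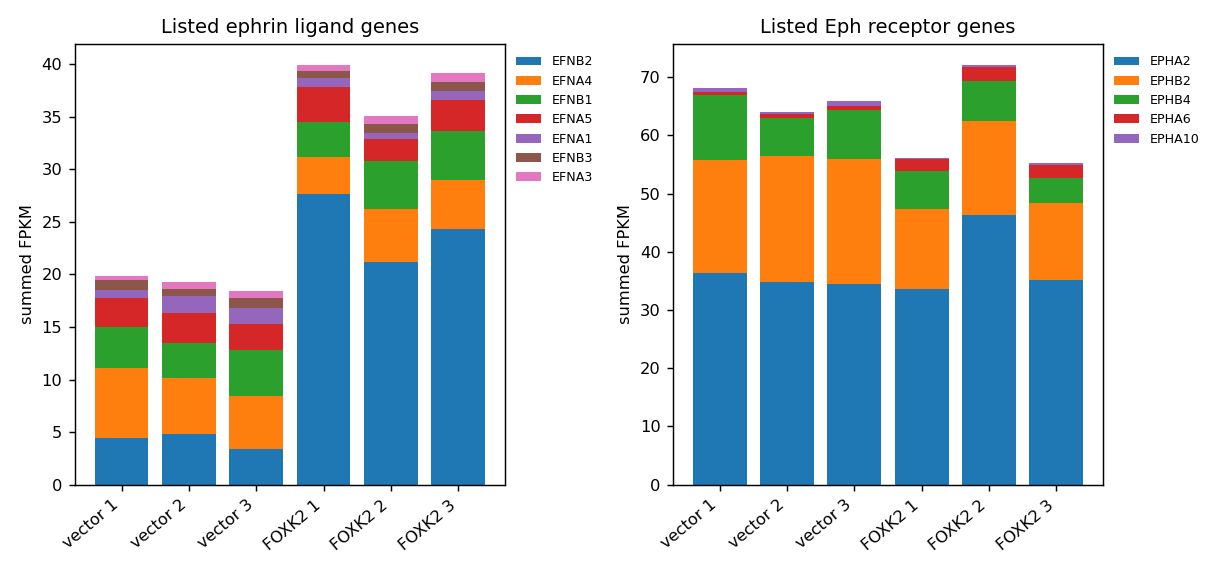
Summed FPKM per library of the 7 listed ephrin ligand genes (left) and the 5 listed Eph receptor genes (right), on linear axes that start at 0, with 1 coloured segment per gene. The ligand sum is 18.4 to 19.8 FPKM in vector and 35 to 39.9 FPKM in FOXK2 libraries, and the EFNB2 segment at the base holds the difference. EPHA2 is the largest receptor segment in all 6 libraries.

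Of the 16 other human ephrin and Eph genes, 10 had no listed transcript and were not analysed here, among them EFNA2, EPHA4, EPHB1 and EPHB3. EFNA3, EFNB3 and EPHA10 were listed with a mean below 1 FPKM and were not tested. EFNA3 was at 0.354 to 0.899 FPKM and EFNB3 at 0.674 to 1 FPKM over the 6 libraries, with overlapping groups. EPHA10, which encodes a receptor without kinase activity, was at 0.723, 0.369 and 0.901 FPKM with the vector and 0.26, 0.372 and 0.293 FPKM in FOXK2 libraries. The other 3 passed the filter. EPHA6, an A-type receptor gene, was at 0.554, 0.719 and 0.767 FPKM in vector libraries and at 1.96, 2.36 and 2.28 FPKM in FOXK2 libraries. The groups did not overlap, but the gene passed the filter on low values only through its FOXK2 libraries, so its difference is given without a test. Its signal changed between the 2 listed transcripts from library to library, with EPHA6-202 giving 9.31 to 100% of the gene sum. EFNA4, the gene of ephrin-A4, was not called (-0.31 in log2 fold change; adjusted p = 0.203 by limma, and 0.24 once corrected for GC content and length). EFNA5, the gene of ephrin-A5, was not called either (0.01, limma adjusted p = 0.965), but it was called lower with that correction (-0.45, adjusted p = 0.0219).

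The genes whose profile over the 6 libraries was nearest to that of EFNB2 were ECT2, SFRP1, NUSAP1, KHDRBS3 and KIF4A. Nearness was the root-mean-square difference of log2(FPKM + 1) values centred on each gene's mean, over the 7211 tested genes whose mean reached 5 FPKM. It was 0.0948 for ECT2, 0.11 for SFRP1, 0.141 for NUSAP1, 0.147 for KHDRBS3 and 0.15 for KIF4A, against a median of 1.18. Their log2 fold changes lay between 2.00 and 2.29. ECT2 went from 12.3 ± 2.34 to 64.3 ± 14.6 FPKM and SFRP1 from 13.8 ± 1.68 to 63.6 ± 12 FPKM (SD, n = 3). In ECT2, SFRP1, NUSAP1 and KIF4A, as in EFNB2, FOXK2 replicate 1 was the highest library, and in all 5 FOXK2 replicate 2 was the lowest of the FOXK2 libraries. The profile of a gene that differs strongly between 2 groups is set mainly by that difference, and the likeness is given as a description over 6 libraries.

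**Figure D4:**
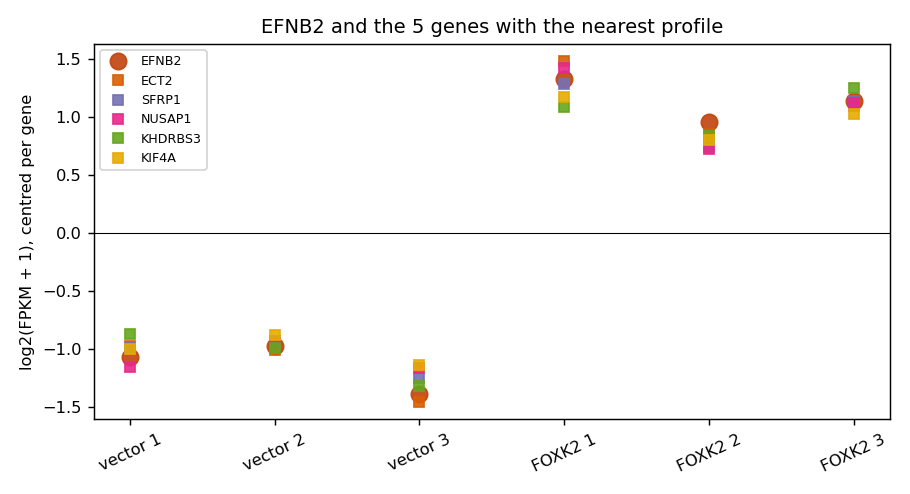
Values of log2(FPKM + 1), centred on each gene's mean, in the 6 libraries for EFNB2 (large circles) and the 5 genes nearest to it (squares). All 6 genes are below 0 in vector and above 0 in FOXK2 libraries, and FOXK2 replicate 2 is the lowest of its group for each.

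Genes that act downstream of Eph receptors changed in both directions, more of them upward. Of 33 genes listed for forward signalling (the receptor's own cell), 27 were tested, and 12 rose, 3 fell and 12 were not called, against 17.6% of all genes called higher and 18.7% lower. Their median log2 fold change was 0.38, against 0.01 for all genes. With the GC and length correction 7 rose and 2 fell, with a median of 0.19, against 15.9% and 14.3% of all genes. CHN1, which encodes the Rac-inactivating protein alpha-chimaerin that acts downstream of EphA4 in mice, rose from 4.44, 4.75 and 3.26 FPKM to 15.3, 9.73 and 12 FPKM (1.36 ± 0.20 SE in log2 fold change; adjusted p = 0.0032 by limma). PAK1, a kinase activated by Rac and Cdc42, rose from 13.7 ± 1.28 to 24.7 ± 0.55 FPKM, and the GTPase gene RAC1 rose from 94 ± 15.4 to 147 ± 2.62 FPKM (means and SD of 3 libraries; 0.81 and 0.66 in log2 fold change, limma adjusted p = 0.00377 and 0.0114). GRB10, an adaptor protein gene, rose by 0.74 on the log2 scale (limma adjusted p = 0.00726), a call not made on its most abundant transcript (0.529). The kinase gene SRC fell from 32.7, 34 and 32.5 FPKM to 17.4, 23.8 and 19.9 FPKM (-0.68 ± 0.14 SE in log2 fold change, or -0.40 with the correction; adjusted p = 0.0105 by limma). INPPL1, the gene of the EphA2-binding phosphatase SHIP2, fell by 0.68 on the log2 scale (limma adjusted p = 0.0105). Its difference was -0.33 with the correction and -0.30 with its most abundant transcript, where it was not called (adjusted p = 0.317 by limma). Neither SRC nor INPPL1 was called when the replicate block was added to that correction. The kinase gene ABL1 fell by 0.51 (limma adjusted p = 0.023, or 0.118 once GC content and length were corrected for and 0.0647 with its most abundant transcript). RHOA was at 210 to 246 FPKM in vector and 199 to 246 FPKM in FOXK2 libraries and was not called (limma adjusted p = 0.817). ABL1 was not called when vector replicate 1, 2 or 3 or FOXK2 replicate 1 was left out (adjusted p up to 0.0736). Where the list had 15 calls, 7 were made when vector replicate 2 or 3 or FOXK2 replicate 1 or 3 was left out. Over all genes, 3741 calls became 2287, 2021, 2349 and 1944 in those fits, in the same order.

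Of 15 genes listed for ephrin-B reverse signalling (the ligand's own cell), 12 were tested, and 2 rose, 3 fell and 7 were not called, against 17.6% of all genes called higher and 18.7% lower. Their median log2 fold change was -0.32, against 0.01 for all genes. After the GC and length correction 1 rose and 1 fell, and the median was -0.04, against 15.9% and 14.3% of all genes. SDCBP, which encodes the PDZ protein syntenin that binds the tail of B-type ephrins, rose from 22.9, 23.5 and 18.5 FPKM to 42.1, 28.6 and 39.3 FPKM (0.72 ± 0.18 SE in log2 fold change; adjusted p = 0.0191 by limma). With the correction the difference was 0.37, and SDCBP was not called when the replicate block was added to that correction. The call as reported was not made without vector replicate 3, FOXK2 replicate 1 or FOXK2 replicate 3 (adjusted p up to 0.0697 by limma) or with the most abundant transcript (0.127). The junction protein gene TJP1 rose by 0.63 on the log2 scale (limma adjusted p = 0.0408; 0.156 with the correction), and by 1.59 when only its most abundant transcript was used. FLOT2, which encodes the membrane raft protein flotillin-2, fell from 49.4, 52.8 and 55.6 FPKM to 18.3, 29.5 and 23.9 FPKM (-1.13 ± 0.18 SE in log2 fold change; adjusted p = 0.00392 by limma). PARD6A, a polarity protein gene, and PICK1, a PDZ protein gene, fell by 0.78 and 0.70 (limma adjusted p = 0.0191 and 0.023), and neither was called with the correction (adjusted p = 0.6 and 0.349) or with the most abundant transcript (0.178 and 0.0638). Leaving out 1 library also ended the calls of TJP1 (any but FOXK2 replicate 2; adjusted p up to 0.126), PARD6A (vector replicate 1 or 3 or FOXK2 replicate 1 or 3; up to 0.0603) and PICK1 (vector replicate 2 or 3 or FOXK2 replicate 1; up to 0.0805). The count of 5 called genes was 1 without vector replicate 3 or FOXK2 replicate 1, 2 without FOXK2 replicate 3 and 3 without vector replicate 1 or 2. Over all genes, 3741 calls became 2021, 2349, 1944, 2583 and 2287 in those fits, in the same order.

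Among the enzymes that cleave ephrins and Eph receptors or end their signalling, 17 of 20 were tested, and 2 rose, 5 fell and 10 were not called, against 17.6% of all genes called higher and 18.7% lower, with a median log2 fold change of 0.04. With the correction 1 rose and 6 fell, against 15.9% and 14.3% of all genes, and the median was -0.14. MMP14, a membrane protease that cleaves EphA2, rose from 60.1, 55.1 and 50.9 FPKM to 71.9, 66.2 and 79.7 FPKM (0.38 ± 0.12 SE in log2 fold change; adjusted p = 0.0459 by limma), a call that was lost without any 1 library other than FOXK2 replicate 2 (adjusted p up to 0.169 by limma) and with the most abundant transcript (0.0641). With the correction the difference was 0.67. The ubiquitin ligase gene CBL rose from 4.03, 3.97 and 3.22 FPKM to 7.13, 6.4 and 6.65 FPKM (0.71 ± 0.15 SE in log2 fold change; adjusted p = 0.0103 by limma; 0.0582 with the correction). The genes PSEN2, PSENEN and NCSTN, which encode subunits of gamma-secretase, the enzyme that cuts the ephrin-B stub left by shedding, fell by 0.88, 0.60 and 0.58 on the log2 scale (limma adjusted p = 0.00882, 0.0193 and 0.0335). PSEN2 was at -0.50 with the correction and was not called with its most abundant transcript (limma adjusted p = 0.133). PSENEN was not called with the correction (adjusted p = 0.0681) or without vector replicate 1, 2 or 3 or FOXK2 replicate 3 (up to 0.0645), and NCSTN not without vector replicate 2 or 3 or FOXK2 replicate 1 or 3 (up to 0.116) or with its most abundant transcript (0.0535). The receptor phosphatase gene PTPRF fell by 0.62 (limma adjusted p = 0.0166), a call lost without vector replicate 2 or FOXK2 replicate 3 (up to 0.0668) and with its most abundant transcript (-0.32, adjusted p = 0.191). With the correction PTPRF was at -0.35. PSEN2, NCSTN and PTPRF were not called when the replicate block was added to that correction, and MMP14 and NCSTN were not called with the block alone. ADAM10, a protease that sheds ephrins, was at 8.05 ± 2.53 and 11 ± 4.55 FPKM (SD, n = 3) and was not called (limma adjusted p = 0.374). Where the list had 7 calls, 2 were made without vector replicate 2 or FOXK2 replicate 3, 3 without vector replicate 3 and 4 without vector replicate 1. Over all genes, 3741 calls became 2287, 1944, 2021 and 2583 in those fits, in the same order.

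Notch signalling, which turns on EFNB2 in arterial endothelium, was represented by 12 tested of 20 genes listed with the arterial and venous factors. Of these 3 rose, none fell and 9 were not called in limma, against 17.6% of all genes called higher and 18.7% lower. At an unadjusted limma p under 0.05, 5 were higher and 0 lower, against 23.9% and 24.3% of all genes. The median log2 fold change was 0.28. With the correction SOX7, MAML1 and HES1 were called higher and none lower, against 15.9% and 14.3% of all genes, with a median of 0.14. SOX7, a transcription factor gene of the arterial SOXF group, rose from 12.9, 12.9 and 12 FPKM to 30.5, 28.3 and 32.2 FPKM (1.21 ± 0.12 SE in log2 fold change; adjusted p = 0.00081 by limma, with a range from 0.000375 to 0.00641 over 17 alternatives). The groups did not overlap. MAML1, a coactivator of Notch, rose by 0.50 on the log2 scale (limma adjusted p = 0.0204) and RBPJ by 0.63 (adjusted p = 0.0475, or 0.344 with the correction and 0.127 with its most abundant transcript). Without vector replicate 1, 2 or 3 or FOXK2 replicate 1 or 3, MAML1 (adjusted p up to 0.066) and RBPJ (up to 0.135) were not called, and 1 gene of the list was. Over all genes, 3741 calls became 2583, 2287, 2021, 2349 and 1944 in those fits, in the same order. The receptor genes NOTCH1 and NOTCH2 and the Notch target genes HES1 and HEY1 were not called (limma adjusted p = 0.18, 0.983, 0.0661 and 0.181), with HES1 at 30.7 ± 1.18 and 38.3 ± 1.87 FPKM (SD, n = 3). The HES1 groups did not overlap, at 29.7 to 32 and 36.6 to 40.3 FPKM, and HES1 was called higher with the correction (0.40 in log2 fold change; adjusted p = 0.01 by limma). DLL4, NOTCH4, HEY2, SOX17 and SOX18 had no listed transcript and were not analysed here.

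**Figure D5:**
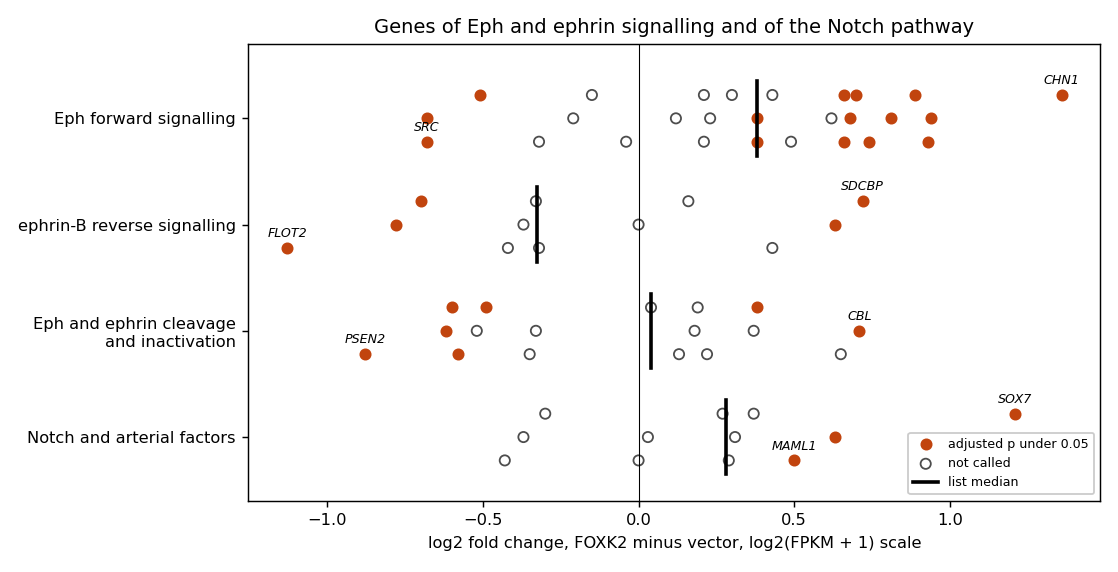
Log2 fold changes, FOXK2 minus vector, of the tested genes in 4 lists. Filled points have an adjusted p under 0.05, open points do not, black bars are list medians (0.38, -0.32, 0.04 and 0.28 from top to bottom), points are spread vertically for legibility, and the lowest and highest called genes of each list are named.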

How the data were processed

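RNA was sequenced from 6 cultures of CAL-62 cells. The series calls the 3 libraries of a group biological replicates, and p-values reflect the spread among those libraries, which may be technical. Per the labels' protocols, libraries were made with a stranded, randomly primed dUTP kit. Per the submitters' processing notes, the tools were cutadapt, HISAT2 2.1.0 and StringTie on hg19; settings and use of strand in counting were not given in the sources used here. As deposited, 31009 transcripts carry values with no named unit. They were taken as FPKM computed by the authors with StringTie, per the submitters' processing notes. Every listed transcript had a group mean of at least 0.5 FPKM, and depth is unknown.

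Identifiers were matched to GENCODE 29 (30893 of 31009), and FPKM were summed by gene symbol. Genes whose mean reached 1 FPKM were tested on log2(FPKM + 1) with limma 3.58.1 in R 4.3.3 (intensity trend, two-sided, Benjamini-Hochberg adjusted p under 0.05 over all 10302 genes). The script was tested on simulated data. Log2 fold changes are FOXK2 minus vector and understate changes of low genes. The correction for GC content and length removed each library's smooth trend (natural splines, 4 degrees of freedom). The members and lists were chosen with earlier results of these data known. Named genes are the members, other listed ephrin and Eph genes, FOXK2, up to 4 called genes of smallest p per direction and list, and the 5 profiles nearest to EFNB2; RHOA, ADAM10, the thyroid factor and keratin genes, the gamma-secretase subunits as a group and the Notch receptor and target genes without a call were chosen after their values were seen.

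Alternatives were pseudocounts of 0.1 and 0.5, no minimum mean or one of 5 FPKM, quantile or median ratio scaling, no intensity trend, the replicate number as a block, the GC and length correction with and without that block, the most abundant transcript of each gene, and each library left out.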

Additional observations from a re-analysis of the deposited data

How the results depend on the processing

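The log2 fold change of EFNB2 was 2.28 as reported, 2.51 with a pseudocount of 0.1 and 1.97 after correcting for GC content and length. So corrected, with or without the replicate block, the other members had 0.44 (EFNB1), 0.10 (EFNA1), 0.43 (EPHA2), -0.34 (EPHB2) and -0.11 (EPHB4). Leaving out 1 library gave 2.16 to 2.38 for EFNB2, 0.01 to 0.22 for EFNB1, -0.53 to -0.22 for EFNA1, -0.03 to 0.19 for EPHA2, -0.59 to -0.46 for EPHB2 and -0.64 to -0.29 for EPHB4. The cause of these shifts was not tested.

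Over all genes, 3741 were called, 3113 with the correction, 2982 with the replicate block and 2124 with both. The count was 2143 with the most abundant transcript, 1040 with a log2 fold change of at least 1 as well, and 1944 to 4768 without 1 library. Members called were 2, or 1 (EFNB2) with the replicate block or the most abundant transcript. They were 4 with the correction, 2 with correction and block (EFNB2 and EPHA2, not EPHB2) and 1 to 2 without 1 library. For forward signalling, 15 calls became 9 with the correction, 5 with correction and block, 6 with the most abundant transcript and 7 to 19 without 1 library. For reverse signalling, 5 became 2, 1 and 2 in the same order, and 1 to 6. For cleavage and inactivation, 7 became 4 with the block, 2 with block and correction, 3 with the most abundant transcript and 2 to 8 without 1 library. For Notch and arterial factors, 3 became 1 with the block and 1 to 4 without 1 library. Among other ephrins and receptors, the only call was EPHA6, which passed the filter only through its FOXK2 libraries. That call is not read as a result. The correction added EFNA5, called lower. With a minimum mean of 5 FPKM or the most abundant transcript, EPHA6 was left untested and the count was 0. EFNA4 turned to 0.24 with the correction, with and without the block. EFNA5 turned to -0.45 with the correction, -0.14 with the most abundant transcript, and -0.04, -0.09 and -0.03 without vector replicate 3, FOXK2 replicate 1 and FOXK2 replicate 3 (-0.09 to 0.16 without 1 library). Over 25 other named genes, 329 of 420 values kept their direction and side of the threshold, 83 lost the call and 8 changed sign.

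The replicate numbers were not taken as pairs, since deviations of same-numbered libraries correlated at 0.126, -0.168 and -0.056. Without read counts, the precision of low genes such as EFNA1 and EPHA6 cannot be stated.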
